A study of Mus musculus with 6 samples.

Results

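The nuclear genes for complexes I, III, IV and V of the mitochondrial respiratory chain were followed through an RNA immunoprecipitation experiment (RIP-seq) on cultured mouse germ stem cells. Members were taken by gene symbol, namely the Nduf genes of the a, b, c, s and v series with Ndufab1, the Uqcr genes with Cyc1, and all symbols that start with Cox and a digit or with Atp5. The rule found 92 of the 22564 genes in the table, of which 38 belong by name to complex I, 9 to complex III, 27 to complex IV and 18 to complex V. The libraries compared were of 3 kinds: RNA recovered with an IGF2BP1 antibody (IGF2BP1 RIP, n = 2), RNA recovered with a control IgG (IgG RIP, n = 2) and input RNA that saw no antibody (input, n = 2). All 6 libraries came from germ stem cells grown with GDNF and FGF2 at 10 ng/ml each, and no genotype, strain, age or further treatment is given for any group. The labels name no separate cultures within a group, so the p-values here reflect library-to-library spread, which may be technical.

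The respiratory chain passes electrons from NADH through complex I, complex III and complex IV to oxygen and pumps protons across the inner mitochondrial membrane, and complex V, the ATP synthase, uses that proton gradient to make ATP. Each complex joins a core, which carries the redox centres or the catalytic sites, to many small accessory subunits, and most subunits are encoded in the nucleus by short mRNAs that are abundant in most tissues. IGF2BP1 is an RNA-binding protein of the IGF2BP family, known for holding and stabilising target mRNAs in the cytoplasm. Germ stem cells are the cultured form of the spermatogonial cells that sustain spermatogenesis.

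The promoters of the respiratory chain genes are textbook targets of the transcription factors NRF1, GABPA (an ETS factor) and YY1. RefSeq promoter windows (GRCm38.p6, 250 bases before to 50 after the start site) were held for 74 of the 92 members. Both strands were searched for GCGCATGC as an NRF1 motif, CCGGAAGT as an ETS motif and AAGATGGC as a YY1 motif. In the windows printed here no motif overlaps a different one. The NRF1 letters were in the windows of 9 members (12.2% of 74, against 6.47% of the 9362 tested genes with a window), the ETS letters in 9 (12.2%, against 9.32%) and the YY1 letters in 13 (17.6%, against 5.30%). At least 1 of the 3 was in 29 members (39.2%, against 19.5%). Windows of 4 genes are shown, chosen after the values were seen, to hold each motif once in a gene that was lower in IGF2BP1 RIP than in input (Ndufa6, Uqcrh, Ndufc1) and a motif in a gene that was not (Uqcrc1). Each is written in the direction of the gene and capitals mark the motif, which for Ndufa6 and Uqcrh reads on the opposite strand and for Uqcrc1 on both strands in overlapping copies.
Ndufa6 (NRF1, chr15:82354242-82354541, minus strand): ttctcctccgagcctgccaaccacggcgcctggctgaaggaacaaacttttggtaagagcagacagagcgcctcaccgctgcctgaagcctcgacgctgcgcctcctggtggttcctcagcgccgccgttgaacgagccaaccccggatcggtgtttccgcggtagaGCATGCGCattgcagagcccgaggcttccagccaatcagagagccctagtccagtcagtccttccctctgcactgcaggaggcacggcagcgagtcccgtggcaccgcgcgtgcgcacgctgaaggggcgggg
Uqcrh (ETS, chr4:116075021-116075320, minus strand): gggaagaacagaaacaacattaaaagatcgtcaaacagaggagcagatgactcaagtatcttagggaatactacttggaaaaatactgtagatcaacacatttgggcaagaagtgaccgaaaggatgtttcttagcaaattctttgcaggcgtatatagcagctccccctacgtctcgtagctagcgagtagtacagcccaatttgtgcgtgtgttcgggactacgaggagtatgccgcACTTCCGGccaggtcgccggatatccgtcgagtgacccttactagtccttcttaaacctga
Ndufc1 (YY1, chr3:51408906-51409205, minus strand): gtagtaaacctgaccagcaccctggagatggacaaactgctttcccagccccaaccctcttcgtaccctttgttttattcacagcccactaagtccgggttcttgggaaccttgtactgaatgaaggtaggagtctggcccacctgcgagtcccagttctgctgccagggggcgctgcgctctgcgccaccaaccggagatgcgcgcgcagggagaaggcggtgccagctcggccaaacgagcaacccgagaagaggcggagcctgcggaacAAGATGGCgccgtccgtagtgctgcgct
Uqcrc1 (NRF1, chr9:108936398-108936697, plus strand): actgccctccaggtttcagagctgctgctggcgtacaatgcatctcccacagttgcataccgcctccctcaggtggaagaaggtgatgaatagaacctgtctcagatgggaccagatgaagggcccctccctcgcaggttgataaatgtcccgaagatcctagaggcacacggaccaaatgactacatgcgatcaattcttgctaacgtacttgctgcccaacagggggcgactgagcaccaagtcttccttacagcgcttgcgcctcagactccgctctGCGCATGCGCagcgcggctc
A match describes the letters of a window and not a bound site, and pull-down from a lysate does not read the promoter.

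The libraries held between 1639251 and 2836942 fragments on protein-coding genes. Levels are given as CPM, in which fragments are scaled by each library's total over the tested genes and its TMM normalization factor. This measure also grows with transcript length. The 2 IgG libraries differed most from each other, the biological coefficient of variation being 7.76% for IGF2BP1 RIP, 50.4% for IgG RIP and 6.76% for input. Of the germ stem cell markers all 12 were tested, and their summed level was 3510 and 3561 CPM with the IGF2BP1 antibody, 3145 and 3076 CPM with IgG, and 3484 and 3365 CPM in input. By edgeR's quasi-likelihood test Etv5, Ret and Sall4 were higher in IGF2BP1 RIP than in input (log2 fold changes 0.73, 0.51 and 0.51, adjusted p = 0.0107, 0.0178 and 0.0260). Dazl was lower (-0.46, adjusted p = 0.0441). Etv5 and Ret were also higher than in IgG RIP (0.53 and 0.44, adjusted p = 0.0273 and 0.0270). The other germ stem cell markers were not called in these 2 comparisons. In IgG RIP over input Sall4 was also higher (0.44, adjusted p = 0.0339) and Dazl also lower (-0.67, adjusted p = 0.0117), and no other of these markers was called. Over IgG RIP the fold changes of Sall4 and Dazl in IGF2BP1 RIP were 0.07 and 0.21, neither called. Macrophage markers, 7 of 8 of them in the table, summed to 2826 to 3540 CPM over the 6 libraries, with Lyz2 from 2452 to 3137 CPM. Of these markers Cd68 was higher in IGF2BP1 RIP than in input (log2 fold change by edgeR's quasi-likelihood test 1.06 ± 0.14 (SE, adjusted p = 0.00689)) and than in IgG RIP (0.57 ± 0.13 (SE, adjusted p = 0.0457)). C1qc was higher in IGF2BP1 RIP than in IgG RIP (0.79 ± 0.18 (SE, adjusted p = 0.0418)), and the other 5 were not called in these 2 comparisons. The part of macrophage RNA in the results was not tested. The 8 fibroblast markers summed to 1966 to 2512 CPM, and of the 8 Sertoli and Leydig cell markers, which summed to 34.9 to 54.7 CPM, Amh, Cldn11 and Cyp17a1 were at 0 in all 6 libraries.

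Fold changes are log2 values from edgeR's quasi-likelihood test with all 6 libraries in 1 model, with Benjamini-Hochberg adjustment over the 12053 genes tested. A call means an adjusted p under 0.05. Of the 92 members 83 passed the filter on low counts and were tested. The 9 others were Ndufa4l2, Cox4i2, Cox6a2, Cox6b2, Cox7a1, Cox8b, Cox8c, Atp5l-ps1 and Atp5s, whose highest level in any library was the 7.37 CPM of Cox6b2 in IgG RIP. The model gives the groups 1 shared spread, which is wider than that of the IGF2BP1 RIP and input libraries and narrower than that of the IgG libraries. Calls from a fit of the 2 groups alone are therefore set beside each count. Groups of 2 libraries often do not overlap. Of all tested genes 27.4% were higher and 24.7% lower without overlap in IGF2BP1 RIP over IgG RIP. The shares were 33.5% and 33.4% in IGF2BP1 RIP over input, and 25.3% and 28.5% in IgG RIP over input.

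The respiratory chain transcripts as a group took a smaller share of the RNA in both pull-downs than in input. The 92 members held 0.477% and 0.464% of all fragments of the IGF2BP1 RIP libraries, 0.4999% and 0.449% of the IgG RIP libraries, and 0.644% and 0.656% of the input libraries. The Wilson 95% intervals were at widest 0.456% to 0.485% over the IGF2BP1 RIP libraries, 0.441% to 0.509% over the IgG RIP libraries and 0.632% to 0.668% over the input libraries, and they cover counting error only. The input libraries stood above all 4 pull-down libraries, while the IGF2BP1 RIP libraries lay between the IgG ones. Summed by complex, complex I had 1354 and 1352 CPM with the IGF2BP1 antibody, 1429.9 and 1319 CPM with IgG, and 2087 and 2058 CPM in input. Complex III had 515 and 469 CPM with the IGF2BP1 antibody, 614 and 555 CPM with IgG, and 739 and 755 CPM in input. Complex IV had 895 and 909 CPM with the IGF2BP1 antibody, 1205 and 1035 CPM with IgG, and 1624 and 1669.7 CPM in input. In these 3 complexes both inputs were above all pull-down libraries, and in complexes III and IV both IGF2BP1 RIP libraries were also below both IgG libraries. Complex V had 1975 and 1915 CPM with the IGF2BP1 antibody, 1714 and 1663 CPM with IgG, and 2099 and 2093 CPM in input, so that here the IGF2BP1 RIP libraries lay above the IgG ones.

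In the comparison of IGF2BP1 RIP with input, which asks what the antibody recovers relative to the RNA of the cells, 15 of the 83 tested members were lower (18.1% of members) and 0 were higher. Over all tested genes 3.76% were called lower and 2.21% higher. The median log2 fold change of the members was -0.82, against 0.00 over all tested genes, and 69 of 83 members were below 0. With those 2 groups alone in the fit 57 members were lower and 7 higher, where 19.1% and 17% of all tested genes were called in those directions, and the 15 genes called lower by the first fit were all among the 57. The 0 higher calls of the first fit compare with 4 members at an unadjusted p under 0.05, where 9.67% of all tested genes had such a p in that direction, and with 0 calls by DESeq2. Among the 7 that were higher in that fit were Ndufs1 and Ndufv1 of the complex I core, the complex III core protein Uqcrc1, the heme synthesis enzyme Cox10, and the complex V head subunits Atp5a1 and Atp5b. Most of the 15 lower calls of the first fit were lost when an input or IGF2BP1 RIP library was left out. More members were called when an IgG library was left out. Such a fit leaves 1 library in a group, and the share called over all tested genes was not taken for it.

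**Figure D1:**
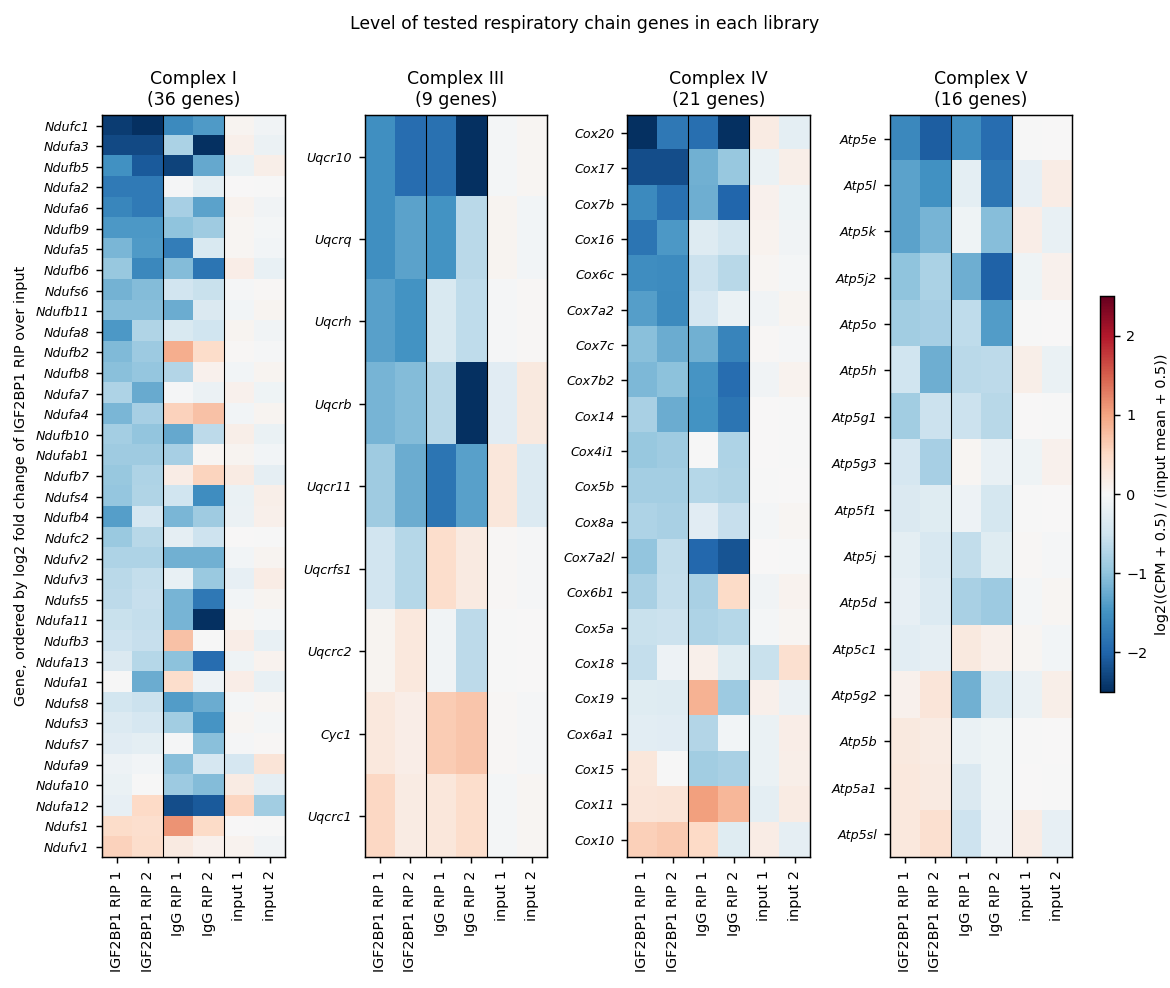
Level of 82 of the 83 tested members in each of the 6 libraries, by complex, as the log2 ratio of CPM + 0.5 to the input mean + 0.5 (colour, saturated at 2.5 either way). Genes run down the page by their log2 fold change of IGF2BP1 RIP over input, from -2.53 (Ndufc1) to 0.51 (Ndufv1) in complex I. The 2 IGF2BP1 RIP columns resemble each other, and the 2 IgG RIP columns differ more.

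Within complex I the 7 core subunits, which carry the flavin and the iron-sulfur clusters, were set apart from the 29 supernumerary subunits. The core subunits summed to 519.6 and 494 CPM with the IGF2BP1 antibody, 471 and 400 CPM with IgG, and 484 and 479.8 CPM in input. Both IGF2BP1 RIP libraries were above input for this sum, and both IgG libraries below it. The supernumerary subunits summed to 819 and 841 CPM with the IGF2BP1 antibody, 918 and 874 CPM with IgG, and 1575 and 1550 CPM in input. Every pull-down library was below every input library for this sum. The median log2 fold change of IGF2BP1 RIP over input was -0.27 for the 7 core subunits, of which 1 was called lower, and -0.93 for the 29 supernumerary subunits, of which 4 were called lower and 28 lay below 0.

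Ndufv1, the subunit that binds NADH and the flavin, had 179.6 and 163 CPM with the IGF2BP1 antibody, 141 and 129 CPM with IgG, and 128 and 113 CPM in input. Its IGF2BP1 RIP libraries were the highest, and the fold change over input was 0.51 ± 0.13 (SE, adjusted p = 0.0701), called only with the 2 groups alone (adjusted p = 0.000255). Ndufv2, its iron-sulfur partner, had 59.8 and 59.3 CPM with the IGF2BP1 antibody, 44.2 and 44.5 CPM with IgG, and 97.4 and 107 CPM in input. It was lower in both pull-downs without overlap with a fold change of -0.78 ± 0.17 (SE, adjusted p = 0.0412) in IGF2BP1 RIP and -1.20 ± 0.17 (SE, adjusted p = 0.0101) in IgG RIP relative to input.

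Ndufs1, the largest iron-sulfur subunit, had 101 and 98.5 CPM with the IGF2BP1 antibody, 160.3 and 102 CPM with IgG, and 73.8 and 72.9 CPM in input, with all pull-down libraries above input and a fold change of 0.44 ± 0.23 (SE, adjusted p = 0.332) for IGF2BP1 RIP over input. The core subunits Ndufs3, Ndufs7 and Ndufs8 had fold changes of -0.39, -0.27 and -0.50 for IGF2BP1 RIP over input, none of them called. With those 2 groups alone Ndufs8 passed (adjusted p = 0.0498), and Ndufs3 and Ndufs7 did not. Ndufs8, an iron-sulfur subunit, was lower in IgG RIP than input, with 27.7 and 26.5 CPM with the IGF2BP1 antibody, 14.4 and 16.1 CPM with IgG, and 37.2 and 39.7 CPM in input and a fold change of -1.33 ± 0.28 (SE, adjusted p = 0.0290).

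Ndufb9 and Ndufa6, both small subunits of the LYR-motif family that dock an acyl carrier protein (Ndufab1) onto complex I, were among the clearest differences. Ndufb9 (ENSMUSG00000022354, GRCm38 chr15:58933809-58939489, plus strand) had 60.5 and 60.7 CPM with the IGF2BP1 antibody, 81.9 and 89.0 CPM with IgG, and 169 and 159 CPM in input. The 3 groups did not overlap, and the fold changes over input were -1.44 ± 0.14 (SE, adjusted p = 0.00292) for IGF2BP1 RIP and -0.94 ± 0.14 (SE, adjusted p = 0.0109) for IgG RIP. Ndufa6 (ENSMUSG00000022450, chr15:82350138-82354291, minus strand), whose promoter window with the NRF1 letters is shown above, had 26.3 and 23.7 CPM with the IGF2BP1 antibody, 45.8 and 32.1 CPM with IgG, and 87.4 and 77.0 CPM in input, a fold change of -1.72 ± 0.25 (SE, adjusted p = 0.0111) for IGF2BP1 RIP over input and -1.08 ± 0.24 (SE, adjusted p = 0.0369) for IgG RIP over input. Their partner Ndufab1 had 30.6 and 30.7 CPM with the IGF2BP1 antibody, 32.2 and 59.4 CPM with IgG, and 60.2 and 54.5 CPM in input. Its fold change of -0.90 for IGF2BP1 RIP over input was not called (adjusted p = 0.151), but passed with those 2 groups alone (adjusted p = 0.000272).

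Ndufc1 (ENSMUSG00000037152, chr3:51404676-51408988, minus strand), a small subunit of the membrane arm and the gene of the YY1 window above, had the lowest fold change of all tested members in IGF2BP1 RIP over input, -2.53 ± 0.32 (SE, adjusted p = 0.00667). Its levels were 8.54 and 7.42 CPM with the IGF2BP1 antibody, 15.1 and 17.2 CPM with IgG, and 49.0 and 43.8 CPM in input, and both kinds of pull-down lay well below input, with a fold change of -1.52 ± 0.30 (SE, adjusted p = 0.0254) for IgG RIP over input. Ndufa2, a small subunit with a thioredoxin-like fold, had 13.9 and 13.8 CPM with the IGF2BP1 antibody, 47.0 and 40.7 CPM with IgG, and 48.4 and 48.0 CPM in input. Here IGF2BP1 RIP alone was low, with fold changes of -1.80 ± 0.24 (SE, adjusted p = 0.00892) over input and -1.66 ± 0.24 (SE, adjusted p = 0.0113) over IgG RIP, while the IgG libraries lay just below input.

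In complex III the core proteins Uqcrc1 and Uqcrc2, which face the matrix and help to hold the complex together, had a median log2 fold change of 0.27 in IGF2BP1 RIP over input, and neither was called. Uqcrc1 had 152 and 122 CPM with the IGF2BP1 antibody, 128 and 144 CPM with IgG, and 103 and 109 CPM in input, and all 4 pull-down libraries were above input. The 5 small subunits Uqcr10, Uqcr11, Uqcrb, Uqcrh and Uqcrq had a median of -1.43, with all 5 below 0 and 2 called lower. Their sum was 193 and 181 CPM with the IGF2BP1 antibody, 253 and 200.4 CPM with IgG, and 461 and 473 CPM in input, which puts every pull-down library under every input library.

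Uqcrh, the hinge protein between cytochrome c1 and cytochrome c, had 64.0 and 57.9 CPM with the IGF2BP1 antibody, 126 and 106 CPM with IgG, and 161 and 169 CPM in input. The 3 groups did not overlap, and the fold change of IGF2BP1 RIP was -1.43 ± 0.15 (SE, adjusted p = 0.00379) over input and -0.93 ± 0.15 (SE, adjusted p = 0.0164) over IgG RIP. Uqcrq, a small membrane subunit, had 24.9 and 28.6 CPM with the IGF2BP1 antibody, 25.6 and 45.6 CPM with IgG, and 76.3 and 69.3 CPM in input, with a fold change of -1.44 ± 0.30 (SE, adjusted p = 0.0382) over input. Uqcrb, which lies near the ubiquinone site, had 48.7 and 51.9 CPM with the IGF2BP1 antibody, 68.3 and 16.1 CPM with IgG, and 89.9 and 130.3 CPM in input. Its IgG libraries differed by more than 2-fold from each other, both below input, and no comparison was called. With IGF2BP1 RIP and input alone in the fit Uqcrb was lower in IGF2BP1 RIP (adjusted p = 3.01e-06).

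Of the electron-carrying subunits, Uqcrfs1, the Rieske iron-sulfur protein, had 47.3 and 40.3 CPM with the IGF2BP1 antibody, 90.0 and 77.0 CPM with IgG, and 67.0 and 65.2 CPM in input. It was lower in IGF2BP1 RIP than IgG RIP with a fold change of -0.93 ± 0.19 (SE, adjusted p = 0.0325), and the difference from input was not called (-0.59 ± 0.19 (SE, adjusted p = 0.132)). That difference passed with IGF2BP1 RIP and input alone in the fit (adjusted p = 0.00428). Cyc1, cytochrome c1, had 79.3 and 74.9 CPM with the IGF2BP1 antibody, 104 and 108 CPM with IgG, and 67.6 and 65.2 CPM in input, and was the 1 member called higher in IgG RIP than in input (0.67 ± 0.16 (SE, adjusted p = 0.0401)). Its fold change of IGF2BP1 RIP over input was 0.22 ± 0.16 (SE, adjusted p = 0.514).

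**Figure D2:**
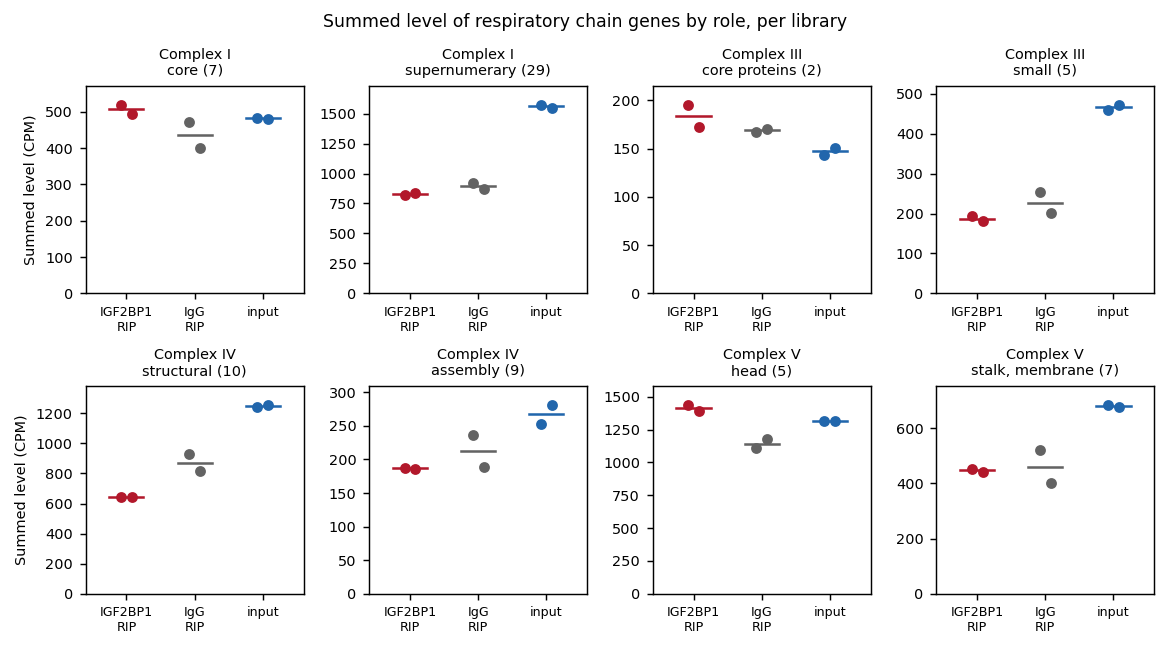
Summed CPM of the members of 8 roles in each library (points, 2 per group) with the group mean (line), from 0. Core subunits of complex I, core proteins of complex III and the complex V head were as high in IGF2BP1 RIP as in input or higher, while the supernumerary, small, structural and membrane subunits were lower in both pull-downs than in input.

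Complex IV held 10 structural subunits, 9 assembly factors, Cox7a2l, and 7 isoforms that are used in few tissues. All 10 structural subunits had fold changes below 0 in IGF2BP1 RIP over input, with a median of -0.89, and 6 of them were lower: Cox5b, Cox6c, Cox7a2, Cox7b, Cox7c and Cox8a. These encode small subunits that surround the catalytic core, which is itself made from mitochondrial genes. Their sum was 643 and 644 CPM with the IGF2BP1 antibody, 927 and 813 CPM with IgG, and 1243 and 1256 CPM in input, with no overlap among the 3 groups.

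Cox6c (ENSMUSG00000014313) had 67.9 and 67.1 CPM with the IGF2BP1 antibody, 139 and 125 CPM with IgG, and 207 and 195 CPM in input. It was the member with the smallest adjusted p in this comparison, with a fold change of -1.58 ± 0.13 (SE, adjusted p = 0.00197) for IGF2BP1 RIP over input. It was also lower in IGF2BP1 RIP than IgG RIP (-0.97 ± 0.13 (SE, adjusted p = 0.00836)) and lower in IgG RIP than in input (-0.61 ± 0.13 (SE, adjusted p = 0.0281)). Cox7a2, the widely used isoform of subunit VIIa, had 18.9 and 16.2 CPM with the IGF2BP1 antibody, 37.3 and 44.5 CPM with IgG, and 47.1 and 52.7 CPM in input. IGF2BP1 RIP was the low group, with -1.51 ± 0.25 (SE, adjusted p = 0.0175) over input and -1.22 ± 0.25 (SE, adjusted p = 0.0323) over IgG RIP.

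Cox7b had 20.6 and 16.9 CPM with the IGF2BP1 antibody, 26.8 and 15.7 CPM with IgG, and 68.2 and 58.6 CPM in input. It had fold changes over input of -1.75 ± 0.32 (SE, adjusted p = 0.0236) in IGF2BP1 RIP and -1.58 ± 0.32 (SE, adjusted p = 0.0265) in IgG RIP. Cox7c had 38.8 and 33.9 CPM with the IGF2BP1 antibody, 34.9 and 25.4 CPM with IgG, and 83.1 and 78.8 CPM in input. It had fold changes over input of -1.15 ± 0.23 (SE, adjusted p = 0.0321) in IGF2BP1 RIP and -1.42 ± 0.24 (SE, adjusted p = 0.0145) in IgG RIP. In both genes the pull-downs overlapped, and each pull-down was below input. Cox5b, the zinc-binding subunit, was at -0.85 in IGF2BP1 RIP over input and -0.74 in IgG RIP over input, both called lower (adjusted p = 0.0157 and 0.0199), and Cox8a was at -0.79 ± 0.18 (SE, adjusted p = 0.0466) in IGF2BP1 RIP over input.

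Cox4i1, the widely used isoform of subunit IV, had 205 and 213 CPM with the IGF2BP1 antibody, 394 and 230.3 CPM with IgG, and 401 and 390.3 CPM in input. The fold change of IGF2BP1 RIP over input was -0.92 ± 0.22 (SE, adjusted p = 0.0582) and missed the threshold, but passed with those 2 groups alone (adjusted p = 9.12e-10). The IgG libraries spanned nearly the whole distance from IGF2BP1 RIP to input. On the per-length scale (TPM, the deposited FPKM rescaled to the same sum in every library) Cox4i1 was also the highest of all members in input, at 1247 and 1184 TPM, followed by Cox6c with 1109 and 1005 TPM and Atp5b with 945 and 946 TPM. The next were Uqcrh with a mean of 778 TPM, Cox5b with 633 TPM, Cox17 with 609 TPM and Ndufb9 with 606 TPM. In complex I Ndufs5 (549 TPM) and Ndufa6 (377 TPM) followed, in complex III Uqcrb (538 TPM) and Uqcr11 (494 TPM), and in complex V Atp5k (539 TPM) and Atp5a1 (362 TPM).

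Among the assembly factors Cox17, the copper chaperone that feeds the copper centres of complex IV, had 21.7 and 21.5 CPM with the IGF2BP1 antibody, 44.2 and 52.7 CPM with IgG, and 91.8 and 113 CPM in input. The 3 groups did not overlap, and fold changes were -2.24 ± 0.22 (SE, adjusted p = 0.00292) for IGF2BP1 RIP over input, -1.16 ± 0.22 (SE, adjusted p = 0.0255) for IGF2BP1 RIP over IgG RIP and -1.08 ± 0.21 (SE, adjusted p = 0.0228) for IgG RIP over input. Cox10 and Cox15, the enzymes that turn heme b into heme a, had fold changes of 0.63 ± 0.31 (SE, adjusted p = 0.315) and 0.15 ± 0.29 (SE, adjusted p = 0.841) for IGF2BP1 RIP over input. Cox10 was the highest of all tested members in that comparison, with 56.6 and 59.3 CPM with the IGF2BP1 antibody, 53.2 and 30.3 CPM with IgG, and 42.8 and 32.0 CPM in input. Cox11, which inserts copper, had the highest fold change of IgG RIP over input, 0.94 ± 0.24 (SE, adjusted p = 0.0533), and Cox20, a chaperone of subunit 2, the lowest, -3.08 ± 1.26 (SE, adjusted p = 0.173), from 0 to 6 fragments in each pull-down library. Neither was called.

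Cox7a2l is a relative of subunit VIIa that joins complex III to complex IV in supercomplexes. It (ENSMUSG00000024248, chr17:83494334-83537468, minus strand) had 49.1 and 63.6 CPM with the IGF2BP1 antibody, 24.4 and 21.3 CPM with IgG, and 97.4 and 97.1 CPM in input. The order was IgG RIP, IGF2BP1 RIP and input from low to high, without overlap. It was higher in IGF2BP1 RIP than in IgG RIP with a fold change of 1.30 ± 0.22 (SE, adjusted p = 0.0189) and lower in IgG RIP than in input with a fold change of -2.09 ± 0.22 (SE, adjusted p = 0.00431). Its fold change of IGF2BP1 RIP over input was -0.79 ± 0.21 (SE, adjusted p = 0.0740), called only with those 2 groups alone (adjusted p = 0.000102).

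Of the 7 tissue-restricted isoforms of complex IV 6 were too low to test. Cox6a2 and Cox8b, used in heart and skeletal muscle, were at 0 fragments in all 6 libraries, which allows a level of up to 1.07 and 1.06 CPM in the IGF2BP1 RIP libraries, 1.16 and 1.12 CPM in the IgG RIP libraries, and 1.86 and 1.78 CPM in the input libraries (3 fragments each). Cox7a1, a muscle isoform, and Cox4i2, a lung isoform, were at most 3.10 and 1.12 CPM in any library. The testis isoforms Cox6b2 and Cox8c were at most 7.37 and 2.99 CPM, each highest in an IgG library. Cox7b2, a further testis isoform, was the one above the filter, with 12.4 and 13.4 CPM with the IGF2BP1 antibody, 9.70 and 7.10 CPM with IgG, and 26.0 and 29.6 CPM in input, and was lower in IgG RIP than in input with a fold change of -1.72 ± 0.38 (SE, adjusted p = 0.0348). The widely used counterparts Cox6a1 and Cox6b1 had -0.27 and -0.70 in IGF2BP1 RIP over input and were not called. With those 2 groups alone Cox6b1 was lower (adjusted p = 0.000947) and Cox6a1 was not called (adjusted p = 0.0876).

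Ndufa4 was named for complex I and is now held to be a subunit of complex IV. It had 11.7 and 14.8 CPM with the IGF2BP1 antibody, 40.0 and 44.9 CPM with IgG, and 25.4 and 27.8 CPM in input. The IgG libraries were the highest and the IGF2BP1 RIP libraries the lowest, with a fold change between them of -1.67 ± 0.28 (SE, adjusted p = 0.0196), the lowest of the called members in that comparison. Its relative Ndufa4l2 was at 0 to 3.91 CPM over the 6 libraries and was not tested.

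In complex V the 5 subunits of the catalytic head, which makes ATP, summed to 1439 and 1393 CPM with the IGF2BP1 antibody, 1108 and 1179 CPM with IgG, and 1313 and 1315 CPM in input, with IGF2BP1 RIP above input and input above IgG RIP, without overlap. Most of that sum came from Atp5a1 and Atp5b, and the median log2 fold change of the 5 over input was -0.25, with 3 of 5 below 0. Atp5a1 and Atp5b, the alpha and beta subunits, form its catalytic ring. Atp5b (ENSMUSG00000025393, chr10:128083272-128090391, plus strand) had 611 and 591 CPM with the IGF2BP1 antibody, 457 and 476 CPM with IgG, and 507 and 518 CPM in input. It was higher in IGF2BP1 RIP than in IgG RIP with a fold change of 0.37 ± 0.08 (SE, adjusted p = 0.0337), and its fold change over input was 0.23 ± 0.08 (SE, adjusted p = 0.135). On the per-length scale the 2 pull-downs overlapped for Atp5b, with 1120 and 1001 TPM in IGF2BP1 RIP and 1192 and 912 TPM in IgG RIP. Atp5a1 had 579.8 and 561 CPM with the IGF2BP1 antibody, 374 and 449 CPM with IgG, and 482 and 479 CPM in input, with 0.47 ± 0.10 (SE, adjusted p = 0.0372) over IgG RIP and 0.25 ± 0.10 (SE, adjusted p = 0.221) over input. Atp5c1, the gamma subunit that turns inside the ring, had 139.8 and 144 CPM with the IGF2BP1 antibody, 201 and 185 CPM with IgG, and 176 and 162 CPM in input. Its fold changes of -0.25 ± 0.11 (SE, adjusted p = 0.280) over input and -0.44 ± 0.11 (SE, adjusted p = 0.0572) over IgG RIP were not called, though the first passed with the 2 groups alone (adjusted p = 0.0326).

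Atp5e, the small epsilon subunit at the foot of the head, went the other way, with 14.2 and 10.2 CPM with the IGF2BP1 antibody, 14.7 and 11.6 CPM with IgG, and 44.0 and 45.0 CPM in input. Both pull-downs were far below input with a fold change of -1.86 ± 0.33 (SE, adjusted p = 0.0223) in IGF2BP1 RIP and -1.75 ± 0.33 (SE, adjusted p = 0.0220) in IgG RIP. Atp5d, the delta subunit, was lower in IgG RIP than in input with a fold change of -0.87 ± 0.16 (SE, adjusted p = 0.0193) and had 93.9 and 85.8 CPM with the IGF2BP1 antibody, 61.3 and 57.2 CPM with IgG, and 105 and 112 CPM in input. The 7 stalk and membrane subunits had a median log2 fold change of -0.85 in IGF2BP1 RIP over input, all 7 below 0 and none called, though all 7 passed with the 2 groups alone. Their sum was 452 and 442 CPM with the IGF2BP1 antibody, 520 and 402 CPM with IgG, and 685 and 676 CPM in input.

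The c subunits Atp5g1, Atp5g2 and Atp5g3, 3 genes that encode the same mature proton-carrying protein, had -0.72, 0.23 and -0.62 for IGF2BP1 RIP over input, none called. With those 2 groups alone Atp5g3 was lower (adjusted p = 0.00945), and Atp5g1 and Atp5g2 were not called. Atp5g3 had 40.5 and 30.7 CPM with the IGF2BP1 antibody, 56.3 and 47.8 CPM with IgG, and 50.9 and 58.6 CPM in input, and Atp5g2 lay between 1.55 and 5.30 CPM in all libraries. The assignment of fragments among these 3 genes may be uncertain and was not tested.

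**Figure D3:**
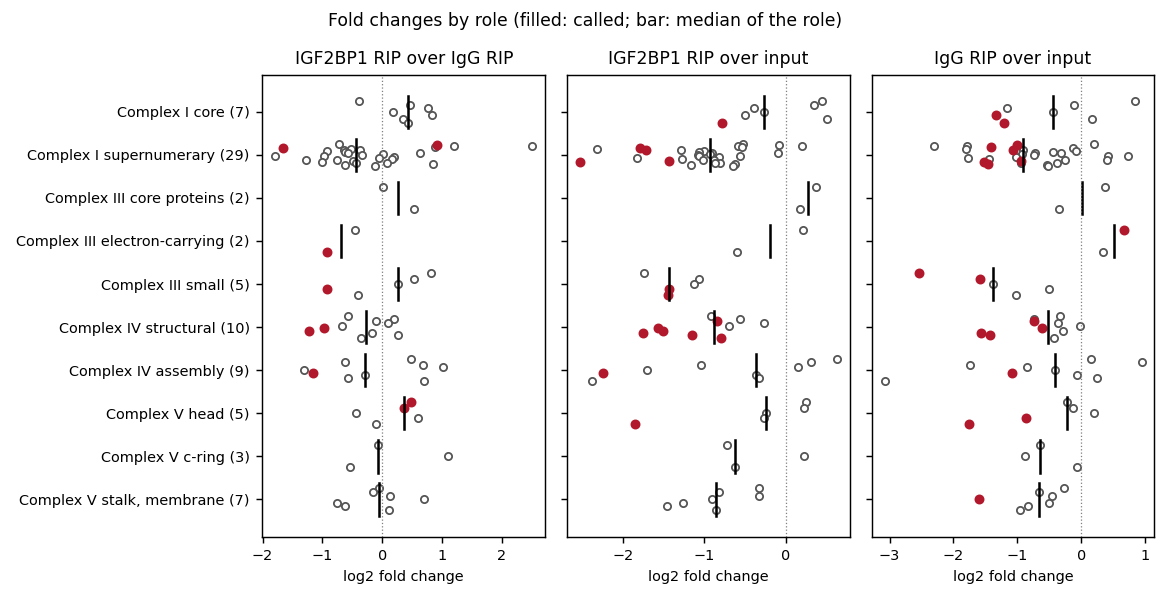
Log2 fold changes of tested members by role in the 3 comparisons (points; filled red where called) with the median of each role (bar). In IGF2BP1 RIP over input the medians run from -1.43 for the small subunits of complex III to 0.27 for its core proteins. Roles with 1 tested member are not drawn.

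Set against IgG RIP, the IGF2BP1 RIP libraries answer which RNA comes down with the IGF2BP1 antibody beyond a non-specific one. Of the 83 tested members 4 were higher and 7 lower, where 3.29% and 3.78% of all tested genes were called in those directions (4.82% and 8.43% of members). The higher ones were Ndufa10, Cox7a2l, Atp5a1 and Atp5b, and the lower ones Ndufa2, Ndufa4, Uqcrfs1, Uqcrh, Cox6c, Cox7a2 and Cox17. The median log2 fold change of the members was -0.11, against -0.01 over all tested genes. The members' median was 0.05 without IgG RIP replicate 1 and -0.18 without IGF2BP1 RIP replicate 1. It was 0.003 and -0.0002 by limma on log2(FPKM + 1) and log2(FPKM + 0.1), so that its sign was not settled. In the fit of those 2 groups alone 0 members passed in either direction, where 0.317% of all tested genes were called higher and 0.916% lower, and the members' adjusted p-values there began at 0.0680 (Cox6c). At an unadjusted p under 0.05 that fit had 8 members higher and 14 lower. Of all tested genes 8.56% and 10.4% had such a p in those directions. By DESeq2 with all 6 libraries 4 were higher and 7 lower. The calls of the fit with all 6 libraries were lost when an IGF2BP1 RIP or input library was left out. More members were called in both directions without an IgG library. The share called over all tested genes was not taken for these fits.

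Ndufa10, a supernumerary subunit related to nucleoside kinases, had 71.5 and 80.2 CPM with the IGF2BP1 antibody, 42.7 and 37.8 CPM with IgG, and 92.4 and 68.7 CPM in input. It was higher in IGF2BP1 RIP than in IgG RIP with a fold change of 0.91 ± 0.21 (SE, adjusted p = 0.0477) and lower in IgG RIP than in input with a fold change of -1.001 ± 0.22 (SE, adjusted p = 0.0330), so that the low group was IgG RIP. The largest fold change of any member over IgG RIP was that of Ndufa12, an accessory subunit of the peripheral arm, at 2.51 ± 0.64 (SE, adjusted p = 0.0608), with 12.4 and 20.5 CPM with the IGF2BP1 antibody, 2.72 and 2.99 CPM with IgG, and 21.1 and 7.70 CPM in input. Its input libraries differed by more than 2-fold and overlapped IGF2BP1 RIP, and it was not called. The lowest was Ndufb2 at -1.79 ± 0.48 (SE, adjusted p = 0.0677), also not called.

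The median of the 7 complex I core subunits was 0.42 over IgG RIP, and that of the 29 supernumerary subunits was -0.43. For complex V the head was at 0.37 and the stalk and membrane part at -0.06. Complex IV structural subunits were at -0.27. For complex III the small subunits and the core proteins were nearly level, with medians of 0.26 and 0.27, and the electron-carrying subunits were at -0.69.

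In IgG RIP over input, which shows what a pull-down without the specific antibody does, 1 member was higher (1.20% of members) and 20 were lower (24.1%), where 4.19% and 4.9% of all tested genes were called. The median of the members was -0.64, against 0.00 over all tested genes. This comparison shares the input libraries with that of IGF2BP1 RIP over input, so the 2 are not independent. The lower members not yet described were Ndufa13, Ndufs5, Uqcr10, Uqcr11 and Atp5j2, with fold changes of -1.41, -1.46, -2.54, -1.59 and -1.59. Their fold changes of IGF2BP1 RIP over input were -0.53, -0.62, -1.74, -1.06 and -0.90, none called. With those 2 groups alone in the fit each of these genes was called lower in IGF2BP1 RIP. Adjusted p was 0.00486 for Ndufa13, 0.000275 for Ndufs5, 3.04e-06 for Uqcr10 and 0.000103 for Uqcr11, and Atp5j2 was among the stalk and membrane subunits that passed.

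Of these, Ndufs5, a subunit that faces the intermembrane space, had 66.9 and 71.3 CPM with the IGF2BP1 antibody, 47.0 and 30.3 CPM with IgG, and 102 and 111 CPM in input. Uqcr11 had 40.5 and 31.8 CPM with the IGF2BP1 antibody, 21.0 and 29.2 CPM with IgG, and 91.8 and 59.2 CPM in input. IgG RIP and input did not overlap in either gene. With IgG RIP and input alone in the fit 3 of 82 members remained lower, Cox7a2l, Ndufb9 and Ndufv2, and 0 were higher, where 1.20% and 1.09% of all tested genes were called. At an unadjusted p under 0.05 that fit had 3 members higher and 34 lower, where 10.3% and 9.92% of all tested genes had such a p in those directions. Nearly all calls of the fit with all 6 libraries were lost when an input or IGF2BP1 RIP library was left out. Without an IgG library more members were called in both directions. For these fits the share called over all tested genes was not taken.

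**Figure D4:**
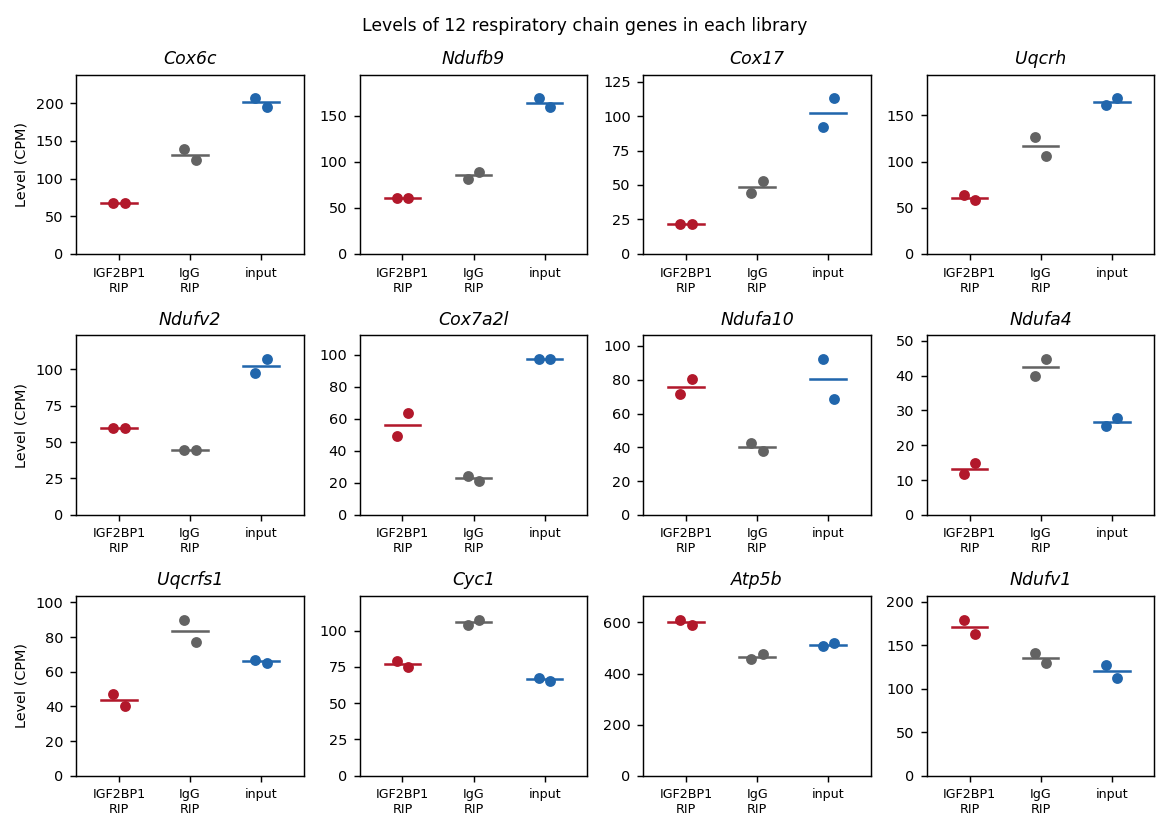
CPM of 12 members in each library (points, 2 per group) with the group mean (line), each panel from 0. Cox6c, Ndufb9, Cox17 and Uqcrh are lowest in IGF2BP1 RIP and highest in input, Cox7a2l and Ndufa10 are lowest in IgG RIP, and Atp5b and Ndufv1 are highest in IGF2BP1 RIP.

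Few members differed between the libraries of a group outside IgG RIP. In IGF2BP1 RIP 1 of 83 members (1.20%) differed 2-fold or more between the libraries, against 4.75% of all tested genes. In IgG RIP this was 12 of 83 (14.5%), against 28.2%, and in input 1 of 83 (1.20%), against 6.50%. Members with discordant IgG libraries include Uqcrb (68.3 and 16.1 CPM), Ndufa11 (33.8 and 10.1 CPM) and Ndufa3 (19.4 and 0 CPM), named here after their values were seen.

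Transcript length moved with these differences. The relative length of a transcript, taken from the ratio of the deposited count to the FPKM, had a median of 0.232 over 85 members on a scale where the median tested gene is 1. It was 0.408 for the complex I core and 0.208 for the supernumerary subunits, 0.574 for the complex III core proteins and 0.152 for the small subunits, 0.166 for the complex IV structural subunits, and 0.411 for the complex V head and 0.243 for the stalk and membrane part. It was 0.421 for the assembly factors of complex IV. The supernumerary subunits of complex I had a shorter median length and a lower median fold change of IGF2BP1 RIP over input than the core. So did the small subunits of complex III set against the core proteins, and the structural subunits of complex IV set against the assembly factors. In complex V this held for the stalk and membrane part set against the head, but the c-ring genes, at 0.196, were shorter than the stalk and membrane part and had the higher median fold change, -0.62 against -0.85. The members held 58 of their 83 tested genes in the shortest of 10 equal length classes of all tested genes. In that class the median log2 fold change of IGF2BP1 RIP over input was -1.01 for the 58 members and -0.53 for all 1205 genes. For IgG RIP over input it was -0.74 for the members and -0.37 for all, and for IGF2BP1 RIP over IgG RIP it was -0.25 for the members and -0.14 for all. In the next class, with 13 members, the medians over input were -0.10 and -0.14 in IGF2BP1 RIP and IgG RIP, against -0.07 and -0.17 for all 1204 genes.

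Across the 83 tested members Pearson's r between log2 fold change and log2 length was 0.60 for IGF2BP1 RIP over input, 0.26 for IgG RIP over input and 0.30 for IGF2BP1 RIP over IgG RIP. Over 12043 tested genes with a length it was 0.22, 0.17 and -0.02 in the same comparisons. Genes are not independent replicates, the comparisons share libraries, and the part of transcript length in the differences was not tested. Ndufc1 stood apart from the relation, with a relative length of 0.452 and the lowest fold change. Ndufv1, at 0.617, and Ndufv2, at 0.542, were of similar length and had fold changes over input of 0.51 and -0.78 in IGF2BP1 RIP.

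**Figure D5:**
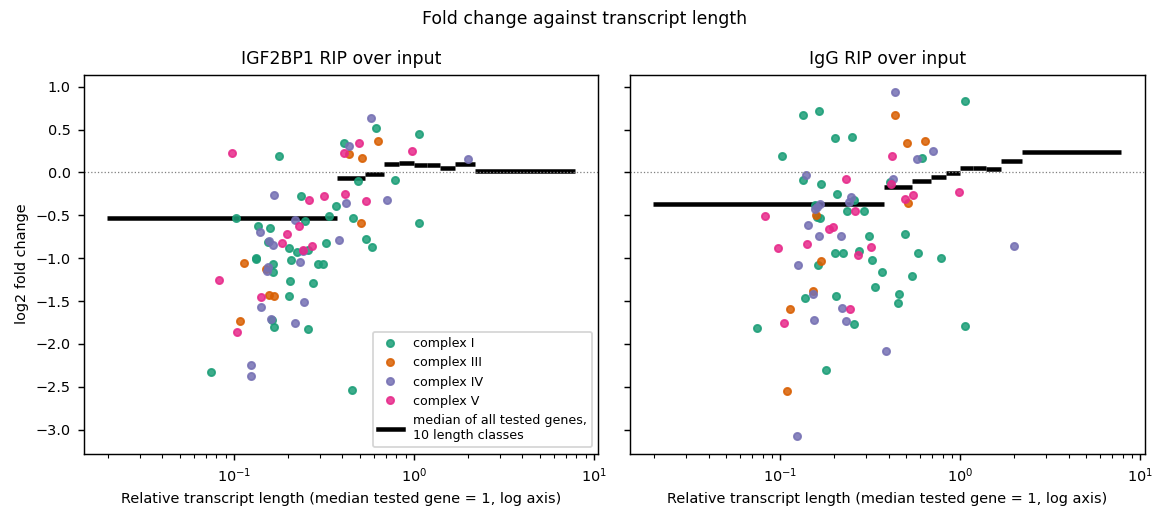
Log2 fold change of each tested member against its relative transcript length (log axis, median tested gene at 1), for IGF2BP1 RIP over input and IgG RIP over input, coloured by complex. Black bars are the medians of all tested genes in 10 length classes. In the shortest class that median is -0.53 for IGF2BP1 RIP and -0.37 for IgG RIP, and the members there have medians of -1.01 and -0.74.

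Of the 92 members 29, Cox4i1, Uqcrh, Atp5d, Cox6c and Cox17 among them, are listed with a locus span that other genes share, and their file coordinates are not printed. The 27 tested members with a shared span had a median log2 fold change of -0.85 in IGF2BP1 RIP over input with 5 called lower, and the 56 others had -0.80 with 10 called lower. Over IgG RIP those with a shared span had 0 higher and 4 lower calls, and the others 4 and 3. The shares over all tested genes were 3.29% and 3.78%. Members with a shared span held 0.1434% and 0.1395% of fragments in IGF2BP1 RIP and 0.190% and 0.1434% in IgG RIP. Those without held 0.334% and 0.324% against 0.310% and 0.306%, with both IGF2BP1 RIP libraries above both IgG ones. The part of shared spans in this was not tested.

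Other genes of the pathway were read from a list. This list of 74 genes covers complex II, the electron carriers and ubiquinone synthesis, assembly factors outside the rule, and regulators, and had 70 genes in the table and 66 tested. Of these 1 was called higher and 2 lower in IGF2BP1 RIP over input, with a median log2 fold change of -0.06. In IGF2BP1 RIP over IgG RIP 3 were higher and 2 lower (median -0.10), and in IgG RIP over input 4 were higher and 4 lower (median -0.12). Over all tested genes the shares called higher and lower were 2.21% and 3.76% for IGF2BP1 RIP over input, 3.29% and 3.78% for IGF2BP1 RIP over IgG RIP, and 4.19% and 4.9% for IgG RIP over input. Complex II, the succinate dehydrogenase, which the rule does not take, had 0 of 6 tested genes called in IGF2BP1 RIP over input, with a median of 0.10, and Sdhc alone was higher in IgG RIP than in input (0.71 ± 0.17 (SE, adjusted p = 0.0463)).

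Cycs, the cytochrome c that carries electrons from complex III to complex IV, had 93.2 and 101 CPM with the IGF2BP1 antibody, 59.8 and 59.4 CPM with IgG, and 164 and 153 CPM in input. The 3 groups did not overlap. It was lower in IGF2BP1 RIP than in input with a fold change of -0.71 ± 0.14 (SE, adjusted p = 0.0287), higher than in IgG RIP with a fold change of 0.70 ± 0.14 (SE, adjusted p = 0.0312), and lower in IgG RIP than in input with a fold change of -1.41 ± 0.14 (SE, adjusted p = 0.00379). Its relative length of 1.09 is close to that of the median gene. Atpif1, the inhibitor protein of the ATP synthase, had 161 and 167 CPM with the IGF2BP1 antibody, 228 and 259 CPM with IgG, and 270.4 and 297 CPM in input, with fold changes of -0.79 ± 0.11 (SE, adjusted p = 0.00995) over input and -0.57 ± 0.11 (SE, adjusted p = 0.0274) over IgG RIP, and its relative length was 0.154.

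Among the regulators Pprc1, a coactivator of the PGC-1 family, had 431 and 405 CPM with the IGF2BP1 antibody, 523 and 594 CPM with IgG, and 301 and 253 CPM in input and was higher than in input in both pull-downs with a fold change of 0.59 ± 0.12 (SE, adjusted p = 0.0286) in IGF2BP1 RIP and 1.01 ± 0.12 (SE, adjusted p = 0.00569) in IgG RIP. Gabpa, the ETS factor whose motif was searched above, was higher in IGF2BP1 RIP than in IgG RIP with a fold change of 0.90 ± 0.19 (SE, adjusted p = 0.0371) and lower in IgG RIP than in input with a fold change of -0.99 ± 0.20 (SE, adjusted p = 0.0252). Cluh, an RNA-binding protein known for binding mRNAs of nuclear mitochondrial genes, was higher in IgG RIP than in input with a fold change of 0.78 ± 0.13 (SE, adjusted p = 0.0145), and its fold change of IGF2BP1 RIP over input was 0.44 ± 0.13 (SE, adjusted p = 0.0929). Of the other listed genes, Coq2 of ubiquinone synthesis was lower in IGF2BP1 RIP than IgG RIP (-1.23 ± 0.27 (SE, adjusted p = 0.0398)) and higher in IgG RIP than in input (1.20 ± 0.28 (SE, adjusted p = 0.0406)). The complex IV assembly factor Coa5 was higher in IGF2BP1 RIP than in IgG RIP (0.63 ± 0.15 (SE, adjusted p = 0.0479)) and lower in IgG RIP than in input (-0.79 ± 0.15 (SE, adjusted p = 0.0219)), and the complex V assembly factor Atpaf1 was lower in IgG RIP than in input (-1.88 ± 0.46 (SE, adjusted p = 0.0470)).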

How the data were processed

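RIP-seq libraries of cultured mouse germ stem cells were analysed from 1 table of 22564 genes. The deposited count columns were treated as estimated counts, because between 92.8% and 94.4% of the values above 0 were whole multiples of 1 step per library (0.954 to 1.03, within 0.01). Dividing by that step and rounding gave whole fragments. The authors also deposited FPKM columns, whose totals follow depth and which served for length, for TPM and for 2 alternatives. Build mm39, cutadapt 1.9.3 and FastQC are named per the submitters' processing notes. The aligner and counter were not given in the sources used here. However, 99.9% of 20874 genes found in a GRCm38 annotation, and all 92 members, overlap their position in it, so positions are given as GRCm38.

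Groups came from the sample titles. The quasi-likelihood test of edgeR 4.0.16 (R 4.3.3) was run after filterByExpr and TMM, with 3 residual degrees of freedom, and the SE is the log2 fold change over the root of the F statistic. CPM were taken over each library's fragments on tested genes, scaled by its TMM factor. The same code was tested on simulated data. Alternatives were DESeq2 1.42.0, limma 3.58.1 on FPKM, other filters and scalings, a replicate block, the 2 groups alone and leaving out each library. Deviations of same-numbered libraries from their group means had correlations between -0.004 and 0.009 over the tested genes. Such deviations hold much counting noise, so these values do not tell whether same-numbered libraries came from the same culture or lysate. The members and all lists were chosen with earlier results of these data known. Values are given for members called in any comparison, the 3 of each complex with the highest input FPKM, isoform sets, core subunits and the extremes, and members named besides these were chosen after their values were seen. Of the listed pathway genes 3 were matched through older symbols (Adck3, Adck4 and 1810043H04Rik), and Adgre1 of the macrophage markers was not analysed here. Intervals and floors cover counting error only. Values of 1 member are not reported here.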

Additional observations from a re-analysis of the deposited data

How the results depend on the processing

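Among 52 gene and comparison pairs, the called members and those with extreme fold changes, none changed sign over the 771 values under other settings. Of these values 485 kept their side of the threshold, 272 lost the call and 14 gained one. In IGF2BP1 RIP over IgG RIP the 4 higher calls became 0 with the 2 groups alone, 1 with the replicate block, 2 by limma on log2(FPKM + 1) and 2 on log2(FPKM + 0.1), and ran from 0 to 24 when 1 library was left out. The 7 lower calls became 0 with the 2 groups alone and 3 under either FPKM setting, and ran from 0 to 28 with 1 library left out. In IGF2BP1 RIP over input the 0 higher calls became 7 with the 2 groups alone and ran from 0 to 7 with 1 library left out. The 15 lower calls became 57 with the 2 groups alone and 8 on log2(FPKM + 1), and ran from 0 to 55. In IgG RIP over input the 1 higher call became 0 with the 2 groups alone, with the replicate block and under either FPKM setting, 3 under the stricter filter (at least 50 fragments in 2 libraries) and 2 on the deposited counts rounded as they stand, and ran from 0 to 7. The 20 lower calls became 3 with the 2 groups alone and ran from 0 to 48. In each case the high end came without an IgG library, a group then left with 1 library whose spread is assumed to be that of the others, and the low end without an input or IGF2BP1 RIP library. The shared coefficient of variation was 25.2% with all libraries. The cause of these changes was not tested. The members' median fold change of IGF2BP1 RIP over IgG RIP, -0.11 with all libraries, was 0.003 and -0.0002 under the FPKM settings and ran from -0.18 to 0.05 with 1 library left out.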

Other observations

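On the per-length scale the 92 members summed to 13585 and 12516 TPM in IGF2BP1 RIP, 15095 and 13351 TPM in IgG RIP, and 19928 and 19450 TPM in input. Complex IV had the largest of the 4 sums in input, with 3891 and 3659 TPM in IGF2BP1 RIP, 4623 and 4280 TPM in IgG RIP, and 6422 and 6410 TPM in input. For the complex V head the sums were 2293 and 2029 TPM in IGF2BP1 RIP, 2137 and 1889 TPM in IgG RIP, and 2173 and 2144 TPM in input, so that on this scale the groups overlap, unlike the CPM sums. For complex III the sums were 1776 and 1517 TPM in IGF2BP1 RIP and 1998 and 1617 TPM in IgG RIP. For complex V as a whole they were 4020 and 3618 TPM in IGF2BP1 RIP and 4121 and 3354 TPM in IgG RIP. In both complexes the 2 pull-downs overlap on this scale, unlike in CPM. These sums are descriptions with no test.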
